A study of Mus musculus with 6 samples.

Results

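The CCR4-NOT complex is the main enzyme that shortens the poly(A) tails of cytoplasmic mRNA, the step that starts most mRNA decay. One large scaffold protein holds the other subunits. Exonucleases of 2 kinds remove the tail, and adaptor proteins that read an RNA motif, a microRNA or N6-methyladenosine (m6A) bring the complex to particular transcripts. The m6A reader YTHDF2 is one such adaptor, so CCR4-NOT acts downstream of the methyltransferase of which Mettl14 is a subunit. The 10 genes described here were chosen by symbol, as the subunits Cnot1, Cnot2, Cnot3, Cnot4, Cnot6, Cnot6l, Cnot7, Cnot8, Cnot10 and Cnot11. All 10 were found among the 16448 genes of the authors' normalized table, and all 10 passed the filter on low counts that left 13039 genes to test.

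RNA was sequenced from thymocytes of C57BL/6 mice that carry both CD4 and CD8 on their surface, sorted by flow cytometry. Developing T cells at this double-positive stage rearrange the alpha chain of their receptor. The 3 KO libraries came from Mettl14fl/fl; CD4-Cre+ animals, in which Cre is made in cells that have turned on Cd4, and the 3 WT libraries from littermate controls. The labels do not give the age, whether the controls carried floxed alleles, or whether each library was a separate animal, so a p-value sets a difference against the spread among 3 libraries of a kind, part of which may be technical. Bulk RNA cannot tell fewer cells of a type from less RNA per cell. Levels are given as CPM, a gene's counts relative to its library's total, with libraries scaled to each other by the TMM method. Log2 fold changes are KO minus WT, and positions are on mm10.

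Counts in genes ranged from 29500254 to 33377056 per library, and the 10 subunits together took 0.233% to 0.242% of them. A single subunit had 1453 to 19291 counts in a library. Summed over 8 defining genes of double-positive thymocytes (Cd4, Cd8a, Cd8b1, Rag1, Rag2, Ccr9, Cd3e and Dntt), the level was 15269 to 16930 CPM in WT and 15954 to 16899 CPM in KO, and none of the 8 was at 0. Mettl14 itself was at 52.1, 58.8 and 55.8 CPM in WT and 42.2, 40.3 and 36.4 CPM in KO. No KO library reached the lowest WT library. The log2 fold change was -0.49 (SE 0.086), with an adjusted p of 0.289 by edgeR, and in the authors' deposited table it is -0.48 with an adjusted p of 0.0040. The position of the floxed exons is not in the labels, so the remaining reads cannot be assigned to deleted or intact parts of the gene.

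The catalytic subunits come as paralog pairs, and counts of a pair could be mixed if their transcripts shared long stretches. Cnot6 (chromosome 11, 49671503 to 49712723) and Cnot6l (chromosome 5, 96070333 to 96164171) were 73.3% identical over 1650 aligned coding bases. Cnot7 (chromosome 8, 40492540 to 40515847) and Cnot8 (chromosome 11, 58104153 to 58118594) were 70.8% identical over 855 aligned coding bases. In both pairs the longest exact run common to the coding transcripts of the GENCODE M21 annotation was 20 bases, inside the coding sequence, and no stretch of 50 bases was shared (0 of 5687 in Cnot6 and 0 of 2933 in Cnot7). The lines below show that run with 12 bases on each side, 5′ to 3′, with the bases that differ within a pair in capitals.
Cnot6: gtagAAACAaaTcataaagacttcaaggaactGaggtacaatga
Cnot6l: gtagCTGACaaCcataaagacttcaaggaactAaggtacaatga
Cnot7: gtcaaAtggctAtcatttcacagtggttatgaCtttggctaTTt
Cnot8: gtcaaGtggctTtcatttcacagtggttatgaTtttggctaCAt
In this window around the longest shared run, the Cnot6 pair differed at 7 of 44 bases and the Cnot7 pair at 5 of 44.

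The transcripts were also searched, on the sense strand and allowing overlaps, for GGACT, a core form of the motif at which m6A is written. No methylation was measured in this series, so a match describes the sequence only. The motif was present in 8 of the 10 coding transcripts, at 38 positions, of which 4 lay in 5′ UTRs, 23 in coding sequence and 11 in 3′ UTRs. Among 11260 tested genes with a coding transcript, 91.6% held it. Its density was 0 to 1.92 per kilobase in the subunits, with a median of 0.79 against 1.05 over all tested genes. Cnot1 and Cnot6 held 11 each, all in the coding sequence in Cnot1 and 8 of them in the 3′ UTR in Cnot6, while Cnot3 and Cnot6l held 0. The search covered 1 transcript per gene, that of the longest coding sequence. For Cnot6l it has 3170 bases, beside 9067 in the union of the gene's coding exons, so a 0 holds for that transcript only. As m6A is known to be enriched around stop codons, the matches closest to the stop codon are shown for the 3 subunits in which that distance was shortest, with the motif in capitals.
Cnot8: gaggatgtGGACTgtgcccag
Cnot11: aacgtgcaGGACTtgtttata
Cnot6: ctagacagGGACTggtgtgtt
The motif starts 55 bases before the first base of the stop codon in Cnot8, 127 before it in Cnot11 and 202 after it in Cnot6.

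The main comparison asked whether loss of Mettl14 was accompanied by other levels of the deadenylase that acts on m6A-marked mRNA. No subunit was called: edgeR, DESeq2 and limma-voom each placed 0 of 10 under an adjusted p of 0.05, and the edgeR values ran from 0.715 to 0.988. Over all genes, that threshold was passed by 0.0383% of genes with edgeR, 0.711% with DESeq2 and 0.0537% with limma-voom. At an unadjusted p under 0.05 there was 1 subunit, Cnot8, by each of the 3 tools, where edgeR reached that level for 6.72% of all genes (3.41% higher and 3.31% lower in KO). Log2 fold changes of the subunits ran from -0.10 for Cnot2 to 0.17 for Cnot4, with standard errors of 0.059 to 0.087. Their median was 0.068, beside -0.0040 over all genes, and 7 of 10 were above 0, beside 48.9% of all genes.

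The precision bounds the changes that these libraries allow. Taken 1 gene at a time, the 95% intervals of all 10 subunits lay between 0.834-fold and 1.30-fold, so changes beyond that range were outside every interval. The subunits varied less between libraries than most genes: their fitted coefficient of biological variation was 7.81% to 9.56%, with a median of 8.40%, beside 13.1% over all genes and 9.18% over the 4594 genes at least as abundant as the lowest subunit. The median size of the log2 fold change, without its sign, was 0.094 in the subunits, 0.069 in those 4594 genes and 0.108 over all genes.

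**Figure D1:**
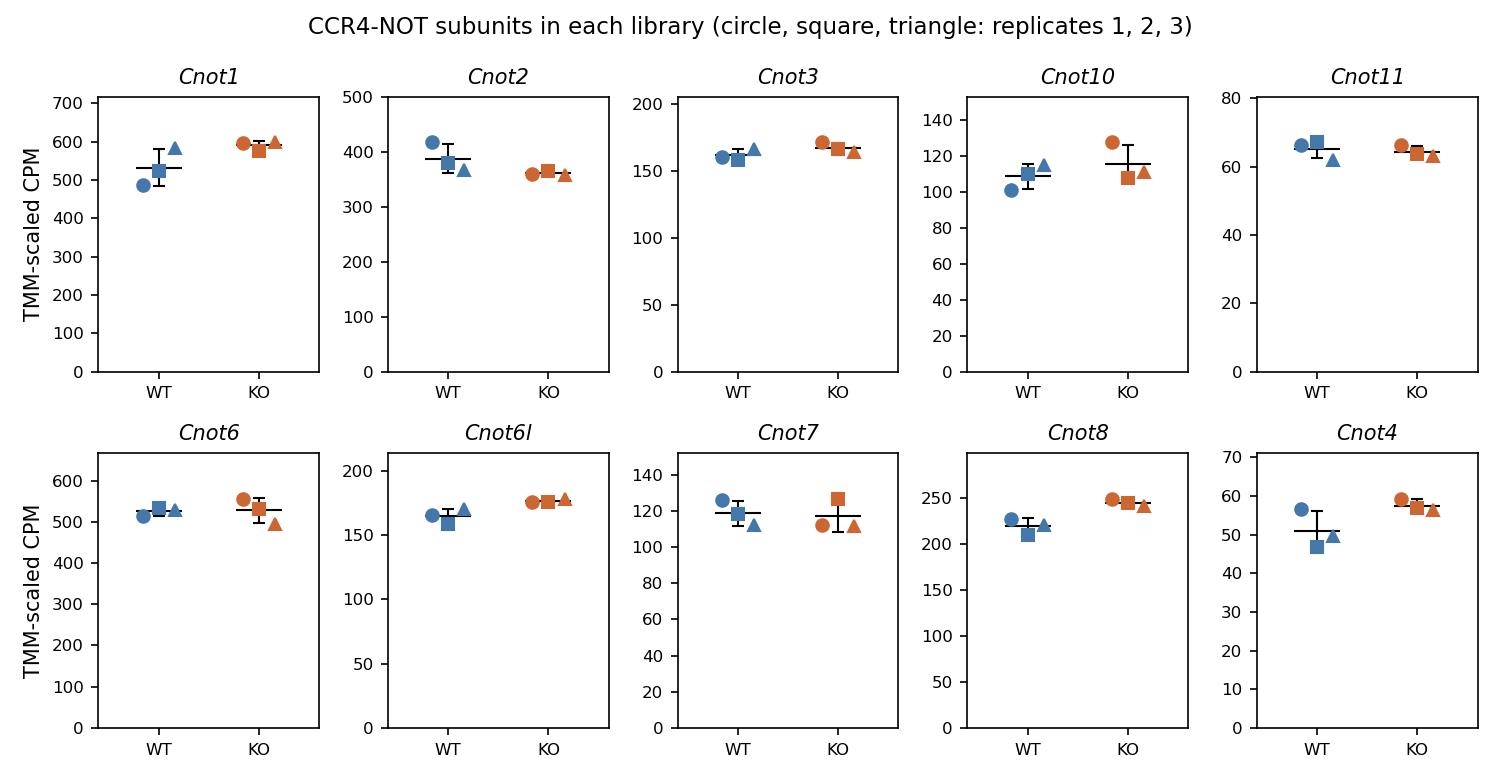
TMM-scaled CPM (vertical axis, from 0) of each subunit in the 3 WT and 3 KO libraries; each point is a library, with the shape giving the replicate number, and the bar and whiskers are the mean and SD of a group. Cnot8 and Cnot6l are higher in every KO library than in any WT library, as are 6.59% of all genes. Cnot2 is lower in every KO library, as are 5.97% of all genes, and the groups of the other 7 overlap.

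Cnot1 (chromosome 8, 95719451 to 95807462) encodes the scaffold on which the complex is built. It was at 487, 524 and 583 CPM in WT and 597, 577 and 598 CPM in KO. The WT libraries were spread widely and the KO libraries closely, and WT replicate 3 lay above KO replicate 2. The means were 532 ± 48.4 CPM and 591 ± 12.1 CPM (SD, n = 3 each), and the log2 fold change came to 0.15 with an SE of 0.078 (edgeR adjusted p = 0.766). It was 0.092 without WT replicate 1 and 0.23 without WT replicate 3.

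Cnot2 and Cnot3 form the module that gives the complex the NOT part of its name and that binds several RNA-bound repressors. Cnot2 (chromosome 10, 116485161 to 116581511) was at 418, 380 and 367 CPM in WT and 360, 366 and 359 CPM in KO. Every KO value was under every WT value, though WT replicate 3 and KO replicate 2 were close, and 5.97% of all genes showed that separation. On the log2 scale the difference was -0.10 (SE 0.068, edgeR adjusted p = 0.791). It was -0.048 without WT replicate 1, the highest library, and -0.136 without WT replicate 3. Cnot3 (chromosome 7, 3645290 to 3661108) was at 160, 158 and 167 CPM in WT and 171, 166 and 164 CPM in KO. Its groups overlapped, and the log2 difference of 0.048 had an SE of 0.060 (edgeR adjusted p = 0.885). It was 0.026 with upper-quartile scaling, 0.020 with library totals and 0.078 without WT replicate 3.

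Cnot10 and Cnot11 bind each other and the N-terminal end of the scaffold. Cnot10 (chromosome 9, 114585878 to 114640200) was at 101, 110 and 115 CPM in WT and 127, 108 and 111 CPM in KO. KO replicate 1 was the highest of the 6, and the other libraries of both groups were intermixed. The log2 difference of 0.088, with an SE of 0.087 (edgeR adjusted p = 0.857), was 0.013 without KO replicate 1, 0.142 without KO replicate 2, 0.039 without WT replicate 1 and 0.135 without WT replicate 3. Cnot11 (chromosome 1, 39534992 to 39546889) was at 66.4, 67.1 and 62.0 CPM in WT and 66.3, 63.9 and 63.0 CPM in KO. The 3 KO values fell inside the WT range, and the log2 difference came to -0.017 (SE 0.068, edgeR adjusted p = 0.969).

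Cnot6 and Cnot6l are alternative versions of the first exonuclease, the relative of yeast Ccr4, and a complex holds 1 or the other. Cnot6 was at 513, 535 and 528 CPM in WT and 556, 532 and 495 CPM in KO. KO replicates 1 and 3 lay on either side of the WT range, and the log2 difference came to 0.0068 (SE 0.067, edgeR adjusted p = 0.988). Cnot6l was at 165, 159 and 170 CPM in WT and 176, 175 and 178 CPM in KO. All KO libraries lay above all WT libraries, as 6.59% of all genes did, and the log2 difference came to 0.10 (SE 0.059, edgeR adjusted p = 0.776).

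Cnot7 and Cnot8 are the alternative versions of the second exonuclease, the relative of yeast Pop2. Cnot8 was at 228, 210 and 221 CPM in WT and 249, 244 and 242 CPM in KO, with every KO library above every WT library. The means were 220 ± 8.83 CPM and 245 ± 3.86 CPM (SD, n = 3 each), 11.6% higher in KO. The log2 fold change was 0.16 (SE 0.061, 95% interval 0.019 to 0.30), the edgeR adjusted p was 0.715 and the unadjusted p was 0.0312. Cnot7 was at 126, 118 and 112 CPM in WT and 112, 127 and 112 CPM in KO, so that the KO libraries spanned the WT range, and the log2 difference came to -0.023 (SE 0.079, edgeR adjusted p = 0.967). The unadjusted p of Cnot8 rose above 0.05 without WT replicate 2 (0.115) or without any 1 of the KO libraries (0.0543 to 0.0884), and with upper-quartile scaling (0.0562) or library totals (0.0647). In the authors' deposited table Cnot8 is likewise the 1 subunit with an unadjusted p under 0.05 (0.0326, adjusted 0.573, log2 fold change 0.17), where 7.19% of its genes have an unadjusted p under 0.05 and 0.762% an adjusted one.

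Cnot4 is a ubiquitin ligase that was named for its place in the yeast complex and is held less firmly in the mammalian one. Cnot4 (chromosome 6, 35022066 to 35133737) was at 56.7, 46.7 and 49.6 CPM in WT and 59.3, 56.8 and 56.3 CPM in KO. WT replicate 1 lay inside the KO range and the other WT libraries below it. On the log2 scale the difference came to 0.17 (SE 0.087, edgeR adjusted p = 0.763). It was 0.113 without WT replicate 2 and 0.255 without WT replicate 1 (edgeR adjusted p = 0.461). Cnot9, a core subunit outside the 10 chosen genes, was at 94.6, 123 and 108 CPM in WT and 111, 103 and 109 CPM in KO (log2 fold change -0.014, edgeR adjusted p = 0.983).

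**Figure D2:**
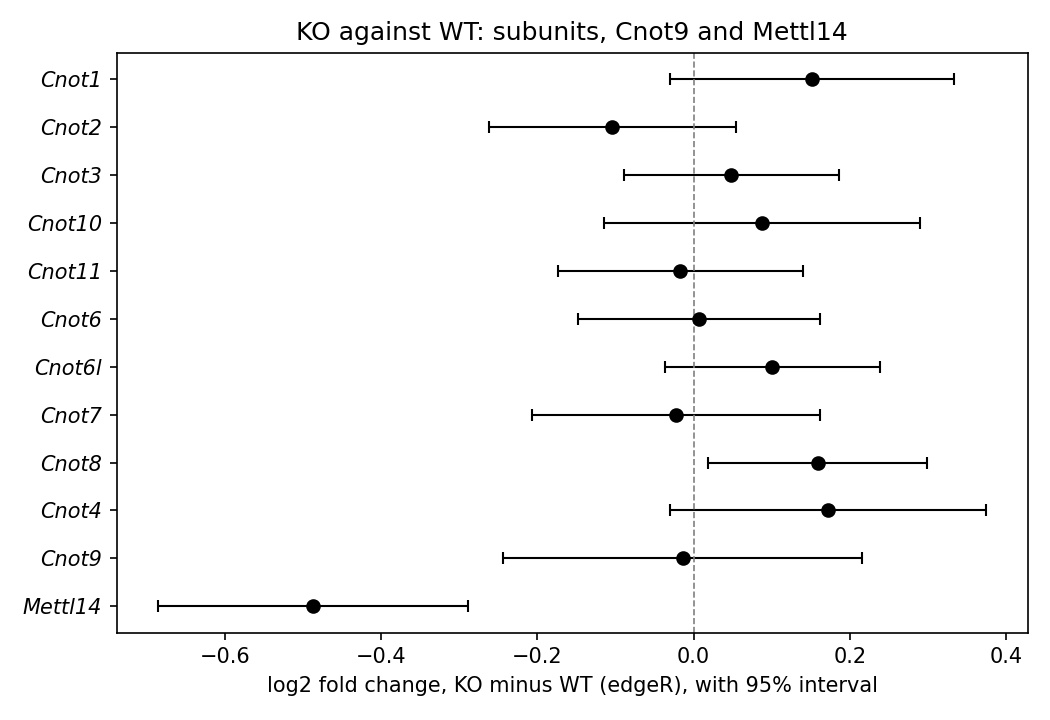
Log2 fold change, KO minus WT (horizontal axis), of the 10 subunits, Cnot9 and Mettl14 from edgeR; points are estimates and bars are 95% intervals for each gene alone. The intervals of 9 of the 10 subunits cover 0, that of Cnot8 runs from 0.019 to 0.30, and that of Mettl14 lies below 0.

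Within each pair of alternative exonucleases, the share of a pair's RNA held by 1 paralog needs no scaling between libraries. With counts divided by the deposited gene length, Cnot6 made up 85.4%, 86.4% and 85.4% of Cnot6 plus Cnot6l in WT and 85.7%, 85.1% and 84.0% in KO. The difference was -0.84 percentage points (two-sided exact permutation p = 0.3, adjusted over the 2 pairs 0.3). Cnot7 made up 13.6%, 13.9% and 12.6% of Cnot7 plus Cnot8 in WT and 11.4%, 12.9% and 11.7% in KO. The difference was -1.39 percentage points (two-sided exact permutation p = 0.2, adjusted 0.3). The groups overlapped in both shares, and 0.1 is the smallest p that 3 against 3 libraries can give. These shares depend on the length used. Divided by the length of 1 coding transcript, the WT shares were 63.8% ± 1.09 for Cnot6 and 27.6% ± 1.12 for Cnot7 (SD, n = 3), with differences of -1.55 and -2.45 points and the same exact permutation p-values.

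The order of the subunits by level was compared per kilobase. The length deposited with the counts equalled the exon lengths summed over every annotated transcript of a gene for 72.8% of 42462 genes, and for 4 of the 10 subunits, in the M21 annotation. For the other 6 it did not equal that sum in M21, and the annotation behind it is not stated. Cnot2 had a deposited length of 23700 bases and a coding transcript of 2800 bases. Cnot10 had 2979 and 2853 bases, with an M21 sum of 19026 bases. Cnot1 had a deposited length of 16630 bases and an M21 sum of 53150 bases, and Cnot4 had 12453 and 23889 bases. The deposited scale thus does not treat the subunits alike, which bears on the places of Cnot10 and Cnot1 in its order. The order is accordingly given on that scale and on 2 others chosen after the data were seen, the length of 1 coding transcript and the union of all coding exons. Means over the 6 libraries spanned a ratio of 10.4 from the highest to the lowest subunit with the deposited length, 8.58 with the coding transcript and 9.51 with the union.

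Per kilobase of coding transcript, Cnot2 was highest at 134 ± 8.01 CPM per kilobase (SD, 6 libraries), then Cnot8 at 111 ± 7.27 and Cnot6 at 91.8 ± 3.61. Cnot1 followed at 66.9 ± 5.37, Cnot3 at 58.2 ± 1.71 and Cnot6l at 53.8 ± 2.38 CPM per kilobase. Lower still were Cnot7 at 39.5 ± 2.36, Cnot10 at 39.2 ± 3.08, Cnot11 at 18.6 ± 0.60 and Cnot4 at 15.6 ± 1.42 CPM per kilobase. On this scale the neighbours Cnot1 and Cnot3, Cnot3 and Cnot6l, and Cnot7 and Cnot10 overlapped over the libraries, and the other neighbours did not. With the deposited length the order ran Cnot8, Cnot6, Cnot10, Cnot1, Cnot2, Cnot3, Cnot6l, Cnot11, Cnot7, Cnot4, from 45.4 to 4.35 CPM per kilobase.

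Of the 45 pairs of subunits, 29 kept their order with no overlap between libraries on all 3 lengths. Cnot4 was below each of the other subunits on all 3, Cnot6 was above Cnot6l, and Cnot8 was above Cnot7. Other subunits changed place with the length used. Cnot2 was first on the transcript and union scales and behind Cnot8, Cnot6, Cnot10 and Cnot1 on the deposited one. Cnot6l was at 53.8 CPM per kilobase of transcript and 18.8 CPM per kilobase of union, and Cnot7 at 39.5 CPM per kilobase of transcript and 6.57 CPM per kilobase of deposited length.

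**Figure D3:**
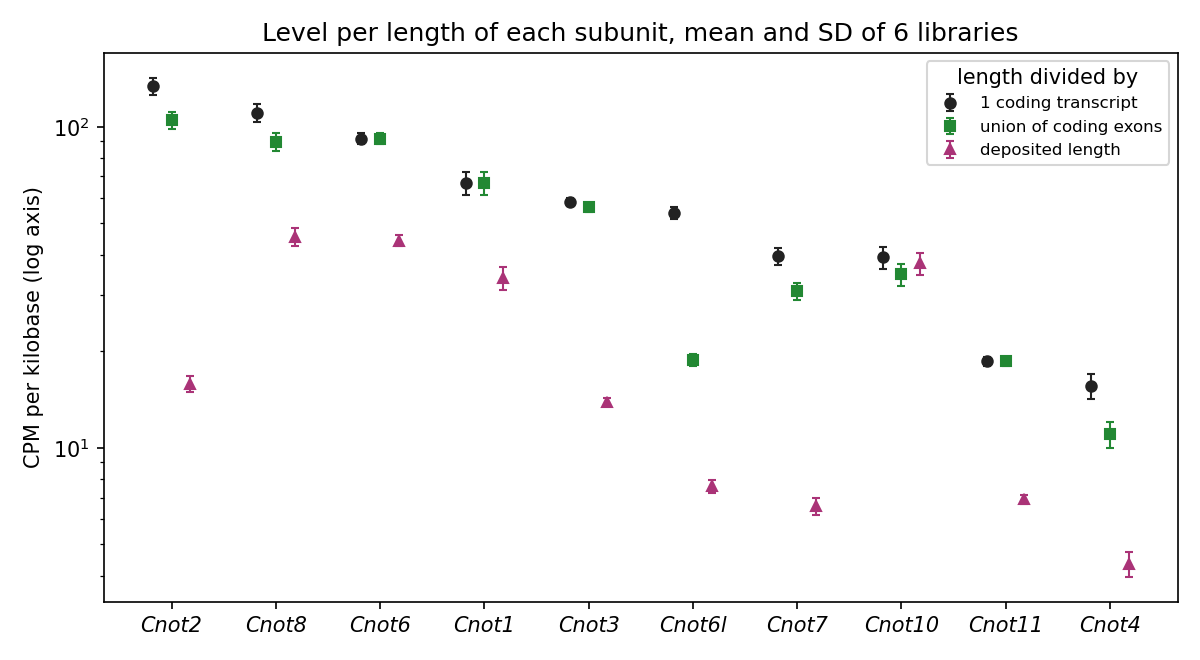
CPM per kilobase (log axis) of each subunit, as the mean and SD of the 6 libraries, for 3 definitions of gene length; subunits are ordered by the coding-transcript scale. Cnot4 is lowest on all 3 scales, and Cnot2 falls from 134 to 15.8 CPM per kilobase when the deposited length is used.

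Genes that act before or after deadenylation were described from lists, by their counts and medians. Among adaptors that bring CCR4-NOT to RNA, 18 of 20 were tested, 16 had a log2 fold change above 0 and the median was 0.18. Over all genes, 48.9% were above 0. At an unadjusted p under 0.05 in edgeR there were 5 adaptors, all higher in KO, beside 3.41% of all genes, and in 4 adaptors every KO library lay above every WT library, beside 6.59% of all genes. No adaptor (0) passed the adjusted threshold in edgeR, DESeq2 or limma-voom. Btg2, an antiproliferative protein that binds the Pop2-type exonuclease and a p53 target, was at 590, 581 and 729 CPM in WT and 757, 742 and 855 CPM in KO (log2 fold change 0.31, SE 0.11, edgeR adjusted p = 0.695). Every KO library lay above every WT library. Rc3h1, which encodes Roquin-1, a repressor of mRNAs with stem-loops, was at 130, 122 and 145 CPM in WT and 153, 154 and 159 CPM in KO (0.23, SE 0.078, edgeR adjusted p = 0.695), again without overlap. Its paralog Rc3h2 was at 88.0, 97.5 and 113 CPM in WT and 124, 125 and 112 CPM in KO (0.27, SE 0.10, edgeR adjusted p = 0.713), with KO replicate 3 inside the WT range. The other 2 were Tnrc6b, a microRNA effector, at 0.28 (SE 0.11), and the m6A reader Ythdf2 at 0.17 (SE 0.072), both named after their values were seen.

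Of 8 other deadenylases 5 were above 0, with a median of 0.011 and 0 at an unadjusted p under 0.05. Pde12, a mitochondrial deadenylase, was at 0.19 (SE 0.095), Angel1 at -0.21 (SE 0.16) and Pan2, which starts tail shortening with Pan3, at -0.078 (SE 0.067). Of 19 decapping and 5′ to 3′ decay genes 9 were above 0, with a median of -0.010 and 0 at an unadjusted p under 0.05. In 2 of these genes every KO library lay above every WT library, beside 6.59% of all genes. The exonuclease Xrn1 was at 0.17 (SE 0.084), the helicase Ddx6, which binds the scaffold, at 0.12 (SE 0.057) and Lsm1 at 0.19 (SE 0.10). These 2 lists held no call in edgeR, DESeq2 or limma-voom (0 in each).

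Of 15 exosome and 3′ to 5′ decay genes tested, 12 were below 0 and the median was -0.033. In 2 of these genes every KO library lay below every WT library, beside 5.97% of all genes. Over all genes, 48.9% were above 0. An edgeR unadjusted p under 0.05 was reached by 3.41% of all genes higher and 3.31% lower in KO. Exosc2, a cap subunit of the exosome, was the 1 member at an unadjusted p under 0.05, at 40.2, 46.9 and 41.3 CPM in WT and 36.1, 35.0 and 37.9 CPM in KO (log2 fold change -0.24, SE 0.085, edgeR adjusted p = 0.713). Exosc7, a core subunit, was at -0.21 (SE 0.10) and Exosc4 at 0.094 (SE 0.083). Of 16 poly(A) tail binding and synthesis genes 13 were above 0, with a median of 0.082. In 5 of these genes every KO library lay above every WT library, beside 6.59% of all genes, and in 1 every KO library lay below. Paip2b, an inhibitor of poly(A)-binding protein, was the 1 member at an unadjusted p under 0.05, at 46.2, 54.6 and 49.7 CPM in WT and 66.9, 56.4 and 66.9 CPM in KO (0.34, SE 0.098, edgeR adjusted p = 0.63). Tent2, a poly(A) polymerase, was at -0.19 (SE 0.081) and Pabpc4, a poly(A)-binding protein, at -0.18 (SE 0.090). Neither list held a call in edgeR, DESeq2 or limma-voom (0 in each). The scaffold-associated protein Tnks1bp1 was at 0.11 (SE 0.14, edgeR adjusted p = 0.892).

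**Figure D4:**
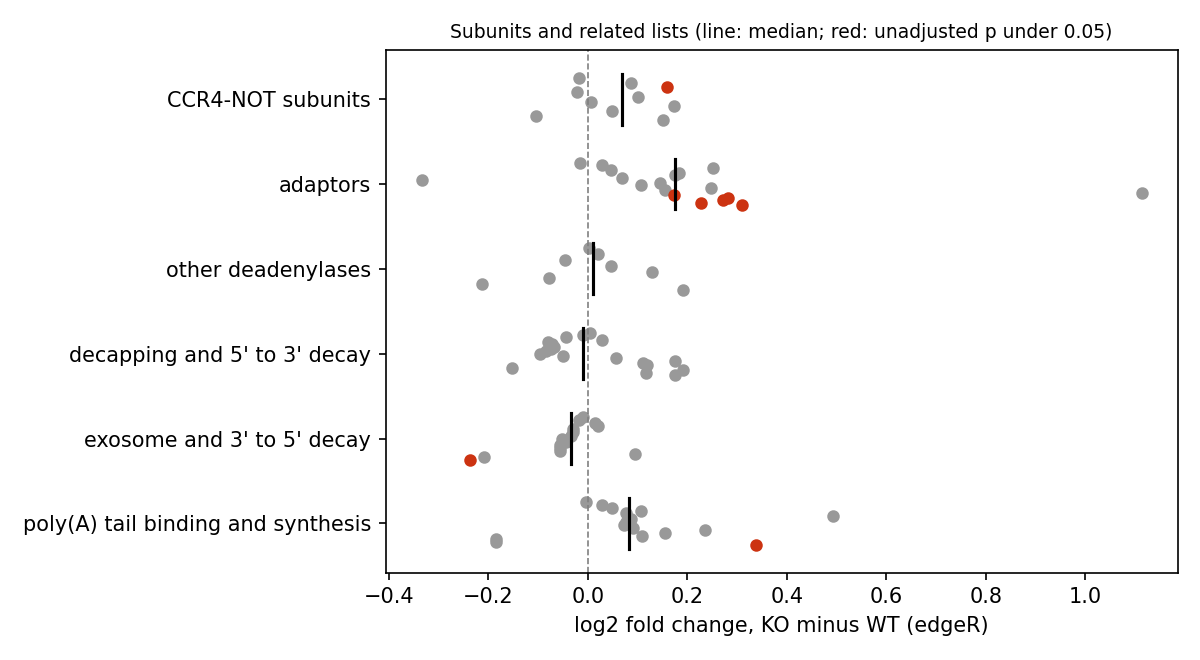
Log2 fold change, KO minus WT (horizontal axis), of each tested gene in the subunit list and 5 related lists; each point is a gene, lines are medians, and red points have an unadjusted p under 0.05. The adaptors have a median of 0.18, the subunits 0.068, and the other lists lie between -0.033 and 0.082.

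Markers of other cells were measured beside these lists. The 6 NK and gamma-delta markers summed to 2.08 to 2.76 CPM in WT and 5.47 to 7.35 CPM in KO, without overlap. Most of each sum was Tcrg-C1 and Tcrg-C2, and the groups of Nkg7 overlapped. All 4 that could be tested had an edgeR unadjusted p under 0.05 and were higher in KO, beside 3.41% of all genes. DESeq2 called 2 of them, beside 0.711% of all genes, while edgeR and limma-voom each called 0. Of these 4, Nkg7 had 10, 13 and 7 counts in WT and 8, 25 and 38 in KO. Fcer1g had 11, 9 and 9 counts in WT and 12, 21 and 17 in KO. Both lay near the filter on low counts, so their being tested depended in part on their KO counts. The share over all genes is thus not a like measure for the 4. The 9 myeloid and dendritic markers summed to 86.8 to 91.9 CPM in WT and 90.3 to 117 CPM in KO, sums held mostly by Cst3 and Itgam. Of the 6 myeloid and dendritic markers tested, 5 were above 0, and the median log2 fold change of the 6 was 0.97. The 1 below 0 was Itgam (-0.24, SE 0.18). An edgeR unadjusted p under 0.05 was reached by 2, H2-Ab1 (0.48, SE 0.16) and Cd74 (1.48, SE 0.62). Cd74 was at 2.69, 5.15 and 3.52 CPM in WT and 2.42, 18.7 and 10.5 CPM in KO, so KO replicate 1 lay below every WT library. The 4 B cell markers summed to 795 to 845 CPM in WT and 796 to 844 CPM in KO, nearly all of it Ighm. Of the 3 B cell markers tested, 2 were above 0, and 1 had an edgeR unadjusted p under 0.05, Cd79a (1.66, SE 0.49), which was highest in KO replicate 2. The 6 thymic stroma markers summed to 153 to 180 CPM in WT and 149 to 160 CPM in KO, most of it Pecam1. Of the 3 thymic stroma markers tested, Epcam was higher in KO (0.56, SE 0.23, edgeR unadjusted p = 0.0423). The other 2, Pecam1 (-0.079, SE 0.079) and Col1a1 (-0.052, SE 0.33), were below 0. The 4 red cell markers summed to 0.034 to 0.394 CPM in WT and 0.068 to 0.341 CPM in KO. The keratin Krt5, a stromal marker, was the 1 marker at 0 in all libraries. Whether other cells had a part in the values of the subunits or adaptors was not tested.

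The subunits did not follow 1 profile over the libraries. Averaged after centring each gene, their log2 CPM in the WT libraries was -0.013, -0.053 and -0.023, and in the KO libraries 0.062, 0.026 and 0.00053. As a description over 6 libraries, which share the group difference, Pearson's r between a subunit and the mean of the other 9 ran from -0.57 for Cnot2 to 0.89 for Cnot8. Cnot3 (0.81), Cnot4 (0.72) and Cnot6l (0.70) were closest to the others after Cnot8, and Cnot7 (-0.29) and Cnot11 (-0.14) were negative like Cnot2. Among 10935 other protein-coding genes, those most like the subunits' mean by Pearson's r over the 6 libraries were Vars2 (0.991), a mitochondrial valyl-tRNA synthetase, the thromboxane receptor Tbxa2r (0.989), the scaffold Slc9a3r1 (0.989), the cytoskeletal linker Plec (0.987) and the kinase anchor Akap13 (0.986). With 6 libraries and that many genes searched, values this high describe the libraries only.

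Some reads could belong to genes on the opposite strand, since no strand setting is given. Exons of Cnot3 overlapped those of Leng1 over 433 bases, Cnot7 those of Zdhhc2 over 247, Cnot2 those of the noncoding 5330438D12Rik over 232 and Cnot1 those of 4930513N10Rik over 132. The overlapping genes averaged 64.5 to 625 counts per library, against 3706 to 17563 for the subunits they overlap, and the overlaps covered 0.769% to 6.07% of the subunits' exons.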

How the data were processed

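RNA-seq libraries of 3 WT and 3 KO samples were analysed. The submitters' processing notes name the build mm10 and, as tools, HTSeq, DESeq2, STAR 2.5.2 and Trimmomatic 0.33. How reads were counted, with which strand setting and annotation, is not stated there. The authors deposited raw counts per gene, a normalized signal (each count over 1 size factor per library), and log2 fold changes with p-values from their own fit. HTSeq rows that name no gene were left out: 12.3% to 15.2% of reads had no feature, 22.6% to 23.9% several alignments and 0.653% to 0.701% were ambiguous. Of 43430 identifiers 42462 were in the name table.

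Counts were tested across all genes with edgeR 4.0.16 in R 4.3.3 (TMM, filterByExpr, quasi-likelihood test on group, two-sided, Benjamini-Hochberg adjustment over 13039 genes, threshold 0.05). Standard errors are the log2 fold change over the square root of F. DESeq2 1.42.0 and limma-voom (limma 3.58.1) were alternatives, with other scalings, no filter, blocks and each library left out. Paralog shares were compared by exact permutation. Log2 CPM for correlations used a prior count of 2. The tests were checked on simulated counts. The lengths from coding transcripts and coding exons were added after the data were seen. Sequences and gene models are from GENCODE M21, with the transcript of the longest coding sequence. Named were all members, Mettl14, Cnot9, up to 3 members of each related list with the lowest p, and 5 genes most like the members. Members, lists and tests were chosen with earlier results of these data known. One marker each of the double-positive and B cell lists is not reported here and was left out of the sums.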

Additional observations from a re-analysis of the deposited data

How the results depend on the processing

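The count of subunits called was 0 in all 14 alternatives, and that over the related lists was 0 in each as well. The count over all genes, 5, was 107 with DESeq2 and 30 with no filter on low counts, and 4 to 23 with 1 library left out (8 when WT replicate 1 was dropped, 23 for WT replicate 3, 14 for KO replicate 2). At an unadjusted edgeR p under 0.05 there were 2 subunits without WT replicate 1, beside 1032 of 13232 genes. Without WT replicate 3 there were 2 as well, beside 1715 of 13425 genes. Each other alternative had 0 or 1. Log2 fold changes of Cnot1, Cnot2, Cnot3, Cnot4, Cnot6l, Cnot8 and Cnot10 kept their sign throughout. Cnot6 (0.0068) turned to -0.016 with upper-quartile scaling and -0.022 with library totals, and ranged from -0.030 to 0.054 with 1 library left out. On the same leave-one-out runs Cnot7 ranged from -0.077 to 0.022 and Cnot11 from -0.045 to 0.0049. Cnot6 was below 0 without WT replicate 1 (-0.0099) or KO replicate 1 (-0.030). Cnot7 was above 0 when WT replicate 1 (0.022) or 1 of KO replicates 1 (0.0096) and 3 (0.012) was dropped, and Cnot11 when WT replicate 2 (0.0049) or KO replicate 3 (0.00057) was. The cause was not tested. The ratio of the highest to the lowest subunit per kilobase, 10.4, was 8.58 with the coding transcript and 9.51 with the union of coding exons, by construction of the lengths. The Cnot6 share differed by -0.365 to -1.21 points (-0.365 without KO replicate 3, -0.506 without WT replicate 2) and the Cnot7 share by -1.09 to -1.86 points with 1 library left out.

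The labels do not say whether same-numbered libraries form pairs, though the name of the authors' normalized table holds the word paired. Deviations of same-numbered libraries correlated at -0.15, 0.080 and 0.19, and only WT replicate 3 correlated best with its own number. With 3 libraries per group, these values cannot decide whether the libraries were paired. With the replicate block edgeR called 5 genes, 0 of them subunits, and Cnot8 had a log2 fold change of 0.16 (edgeR unadjusted p = 0.0553). The paralog shares, with the same block, had exact permutation p-values of 0.5 for Cnot6 and 0.25 for Cnot7. With 3 replicate numbers, 0.25 is the smallest two-sided p that this permutation test can give. The Cnot7 share was lower in KO at every replicate number. A block of replicate 3 against 1 and 2, which an earlier look at the deposited fold changes had suggested, also called 5 genes and 0 subunits.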
